A study of Mus musculus with 22 samples.

Results

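The genes described here set the supply and removal of superoxide and hydrogen peroxide in the vessel wall: Nox4, Cybb, Cyba and Ncf1 of the NADPH oxidases, the superoxide dismutases Sod1, Sod2 and Sod3, and the catalase gene Cat. They were found by gene symbol in the annotation of the array, and each was read from its brightest probe set by mean signal across the 22 arrays. Of the 8 genes, 7 had a probe set with 1 symbol, out of 11807 genes named on the array, and Ncf1 was not analysed here. The 7 genes were covered by 12 probe sets, since 4 of them had more than 1.

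NADPH oxidases carry electrons across a membrane to oxygen. Cybb encodes gp91phox, the catalytic subunit of the phagocyte oxidase, which is silent until cytosolic subunits such as the product of Ncf1 join it; Nox4 encodes a catalytic subunit that needs no such subunits and releases mainly hydrogen peroxide, and Cyba encodes p22phox, the small membrane partner of both. Superoxide dismutases turn superoxide into hydrogen peroxide in the cytosol (Sod1, with copper and zinc), in mitochondria (Sod2, with manganese) and outside the cell (Sod3, with copper and zinc), and catalase breaks hydrogen peroxide down in peroxisomes. In arteries, superoxide destroys nitric oxide, Nox4 is a main oxidase of endothelium and smooth muscle, Cybb is found in endothelium and abundantly in phagocytes, and Sod2 is a known target of inflammatory signals.

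The RNA came from aortic intima of C57BL/6 mice kept on chow, scraped from opened vessels and labelled as aortic endothelial cells. Fresh samples came from 4-week-old ApoE -/- mice (n = 4 arrays), labelled pre-lesioned hyperlipidemic, and from 4-week-old wild-type mice (n = 6), labelled normal-lipidemic. ApoE carries lipoprotein remnants to their receptors, so loss of Apoe and hyperlipidemia go together here and cannot be told apart. The other 4 groups were whole wild-type aortas kept for 4 h in DMEM with 1% fetal bovine serum, alone (called medium) or with a stimulus (n = 3 arrays each). LPS, a bacterial endotoxin, was given at 4 ng/mL. oxLDL, an oxidized lipoprotein, and oxPAPC, an oxidized phospholipid preparation, were each given at 50 µg/mL. The labels give no age for the incubated aortas and do not say how many animals an array stands for, so p-values speak of the spread among arrays only. All levels below are log2 signals of 1 probe set, in which 1 unit is a doubling, and a level of 1 gene cannot be set against that of another.

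The upstream sequences of Sod2, Cybb and Cat are shown because Sod2 and Cybb were the 2 genes called higher with LPS, while Cat had the largest fall after incubation. Each window runs from 250 bases before to 50 bases after the annotated start, is taken from RefSeq (GRCm38.p6) and reads 5′ to 3′ on the gene's strand, with motif matches in capitals. The Sod2 window lies on the plus strand at chr17:13007589-13007888, the Cybb window on the minus strand at chrX:9469275-9469574 and the Cat window on the minus strand at chr2:103485104-103485403.
Sod2: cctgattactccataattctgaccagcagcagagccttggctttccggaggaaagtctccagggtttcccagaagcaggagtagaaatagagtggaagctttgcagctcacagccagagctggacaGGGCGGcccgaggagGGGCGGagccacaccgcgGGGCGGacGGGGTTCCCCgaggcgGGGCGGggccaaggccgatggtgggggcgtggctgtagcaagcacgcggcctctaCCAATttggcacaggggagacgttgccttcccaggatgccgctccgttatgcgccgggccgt
Cybb: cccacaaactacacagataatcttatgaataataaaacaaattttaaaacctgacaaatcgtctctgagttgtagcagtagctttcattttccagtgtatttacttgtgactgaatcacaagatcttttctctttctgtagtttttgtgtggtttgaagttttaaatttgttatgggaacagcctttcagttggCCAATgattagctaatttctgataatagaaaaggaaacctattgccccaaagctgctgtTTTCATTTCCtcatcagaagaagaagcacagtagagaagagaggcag
Cat: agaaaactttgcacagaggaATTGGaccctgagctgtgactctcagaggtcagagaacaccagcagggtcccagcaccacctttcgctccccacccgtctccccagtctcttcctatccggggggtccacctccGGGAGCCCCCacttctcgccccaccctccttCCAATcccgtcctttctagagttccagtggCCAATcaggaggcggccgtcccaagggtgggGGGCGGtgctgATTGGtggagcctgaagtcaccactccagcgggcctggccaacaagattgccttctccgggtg
The Sod2 window held an NF-kB match, counted from -83 relative to the start, 4 GC boxes (GGGCGG) and a CCAAT box. The Cybb window held a match to a composite ETS-IRF element (GGAA and GAAA, 2 bases apart), read on the opposite strand from base 4 after the start, and a CCAAT box at -56. The Cat window held an NF-kB match from -116, 1 GC box and 4 CCAAT boxes. Both strands were searched, and 0 of these matches overlapped another. Over 32851 promoter windows of the same length, 8.46% held the NF-kB motif, 2.72% the ETS-IRF element, 35.7% a GC box and 37.4% a CCAAT box. Of the 8 genes, 7 had a window; 2 of these held the NF-kB motif (Sod2 and Cat), 1 the ETS-IRF element (Cybb), 6 a GC box and 4 a CCAAT box. The antioxidant response element (TGACNNNGC; 12.4% of all windows) and the TATA box (TATAAA; 13.6%) matched in Sod1 alone, and the FOXO motif (GTAAACA; 3.65%) in 0 of the 7. A match describes the letters of these windows and no more.

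The arrays were alike in scale: their 40th percentile, used below as a rough floor of detection, lay between 4.58 and 4.71, and arrays of 1 group correlated across genes at 0.9771 to 0.9907. Apoe lay below that percentile on every fresh array, at 3.04 to 3.23 in the knockout and 3.78 to 4.35 in the wild type, without overlap. Of the 10 endothelial marker genes all but Robo4 lay above the 40th percentile on at least 1 array of each group, and their mean level was 7.99 to 9.05 over all arrays. The smooth muscle markers were also well above it, at a mean of 7.84 to 9.80, and the macrophage markers near it, at 4.51 to 6.07. Of 8 neutrophil markers, 7 lay under the 40th percentile on all arrays of every group, S100a9 being the exception. The 1 tested neutrophil marker and the 1 tested lymphocyte marker were not called in the knockout comparison or in any comparison with medium or wild type. In these bulk samples fewer cells of a type and less RNA per cell cannot be told apart.

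Comparisons were tested with limma across all genes, and "called" below means an adjusted p under 0.05. Between ApoE -/- and wild-type intima 0 of the 7 genes were called, where 0.427% of 7264 genes tested were. Incubation in medium against fresh wild-type intima called 4 of 7, with Cybb and Sod2 higher and Cat and Sod3 lower, against a background of 58.7% of 7508 genes (24.3% called higher and 34.4% lower). LPS against medium called 2 of 7, both higher (Sod2 and Cybb), where 9.05% of 7550 genes were called and 3.36% called higher. oxLDL against medium called 1 of 7, Cat, which was lower, where 2.81% of genes were called and 2.07% called lower. oxPAPC against medium called 4 of 7, with Nox4 and Cat higher and Cyba and Cybb lower, where 21.3% were called, 8.34% higher and 12.9% lower. The share after incubation was near its background; Sod1 was called in none of these 5 comparisons. The groups did not overlap at all for 1 of 7 genes in the knockout comparison (5.18% of all genes), 4 after incubation (52.4%), 3 with LPS (34.8%), 2 with oxLDL (28.2%) and 4 with oxPAPC (40.1%). Set against each other, LPS and oxLDL differed for 2 of 7 genes (5.07% of all genes called), LPS and oxPAPC for 4 (8.65%) and oxLDL and oxPAPC for 3 (12.4%). The 3 stimuli share the same 3 medium arrays, so their comparisons with medium are not independent.

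**Figure D1:**
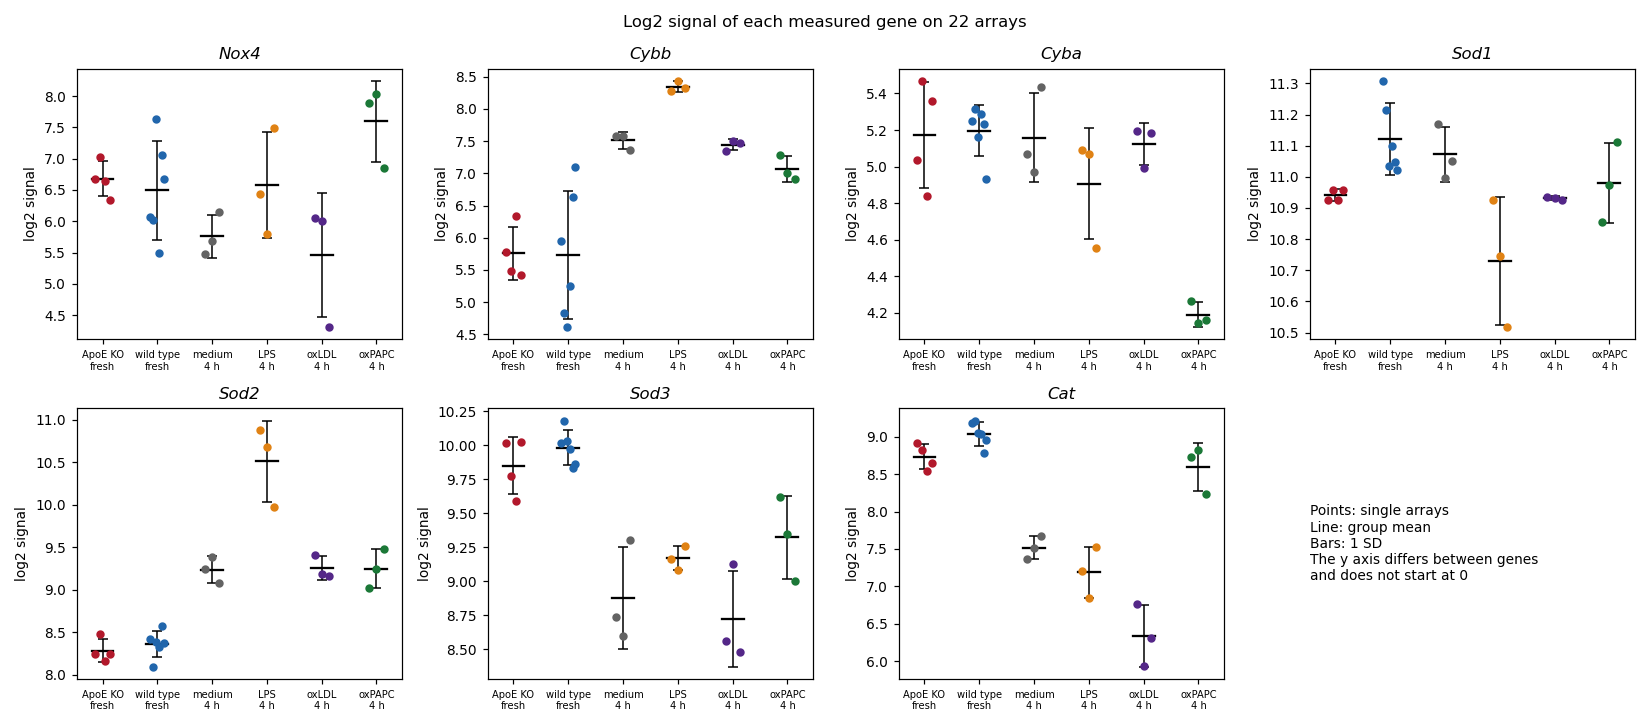
Log2 signal (vertical axes, not starting at 0) of the 7 genes in the 6 groups (horizontal axes); points are arrays and lines with bars are means and SD. Sod2 and Cybb stand highest with LPS, at means of 10.51 and 8.35, Cyba lowest with oxPAPC, at 4.19, and Cat between 8.23 and 8.83 with oxPAPC, above every medium array.

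Nox4, the constitutively active catalytic subunit, rose with oxPAPC. Its level was 5.47, 5.68 and 6.14 in medium replicates 9, 10 and 11, and 7.89, 8.04 and 6.86 in oxPAPC replicates 11, 12 and 13. All 3 oxPAPC arrays stood above all 3 medium arrays, and the level was 3.56-fold higher (log2 change 1.83 ± 0.51, standard error of the fit here and below; limma adjusted p = 0.027). The call needed most of the arrays: without oxPAPC replicate 11 or 12, or without medium replicate 9 or 10, the adjusted p was 0.0901, 0.098, 0.0858 and 0.0641, and the change over all arrays left out in turn was 1.61 to 2.203. A second Nox4 probe set gave a larger change, 2.30 ± 0.45 (adjusted p = 0.00608).

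With LPS, Nox4 was at 6.44, 5.80 and 7.49, overlapping the medium arrays (0.81 ± 0.51, adjusted p = 0.323), and its second probe set changed by 1.29 (adjusted p = 0.0868). With oxLDL it was at 6.05, 6.01 and 4.31, the last value being the lowest of all 22 arrays (-0.31 ± 0.51, adjusted p = 0.757). Its second probe set changed in the other direction with oxLDL, by 0.72 (adjusted p = 0.372). Compared directly, Nox4 was 4.41-fold lower with oxLDL than with oxPAPC (-2.14 ± 0.51, adjusted p = 0.0197). That call was lost without oxLDL replicate 16 (0.0674) or oxPAPC replicate 11 (0.0726) or 12 (0.0815). In fresh intima Nox4 spread widely, with a lowest value of 5.49, a median of 6.37 and a highest of 7.63 in wild type, against 6.68, 7.03, 6.65 and 6.35 in ApoE -/-. Medium overlapped wild type (-0.73 ± 0.40, adjusted p = 0.142). Without wild-type replicate 13 Nox4 was called lower there (-0.93, adjusted p = 0.0471), which made 5 of the 7 genes called. In that comparison 58.7% of all genes were called with every array kept. The knockout values all lay inside the wild-type range (0.18 ± 0.35; 95% interval -0.59 to 0.95).

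Smooth muscle markers moved with Nox4 under oxPAPC and in some groups but, on the brighter Nox4 probe set, not in others. With oxPAPC 6 of 8 tested smooth muscle genes were called higher and 0 lower, where 8.34% of all genes were called higher. Their median change was 1.06, against -0.05 for all genes. Their mean level was 9.42, 9.28 and 9.02 in replicates 11, 12 and 13, where Nox4 was also lowest in replicate 13. In medium it was 7.84, 8.24 and 8.76. The wild-type array with the highest Nox4, replicate 12, also had the highest smooth muscle mean (9.80), and the one with the lowest Nox4, replicate 13, the lowest (8.92). In ApoE -/- replicate 6 had the highest smooth muscle mean (9.80). Its Nox4 was the lowest of the group on the brighter probe set and the highest on the second (6.24). With LPS 3 of 8 of these markers were called higher (median change 0.77), where 3.36% of all genes were. With oxLDL 0 of 8 were called, where 2.81% of all genes were. The median change of these markers was 0.72 and their mean 8.69 to 9.13. Nox4 changed there by -0.31 on its brighter probe set and by 0.72 on its second, neither of them called. Replicate 16 of oxLDL had the lowest marker mean and the lowest Nox4 of its group. The part of smooth muscle RNA in the Nox4 result was not tested.

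Cybb, the phagocyte-type catalytic subunit, rose in medium and rose further with LPS. In fresh wild-type intima it spread from 4.62 through a median of 5.60 to 7.09, and in medium replicates 9, 10 and 11 it was at 7.59, 7.58 and 7.36. The groups did not overlap, and medium was 3.44-fold higher (1.78 ± 0.49, adjusted p = 0.00953). With LPS it reached 8.27, 8.44 and 8.33, above every other array of the series. This was 1.79-fold over medium (0.84 ± 0.14, adjusted p = 0.00609), and the call held with any 1 LPS or medium array left out. When all 22 arrays shared 1 estimate of the spread, which takes in the wild-type SD of 0.997, the same difference had an adjusted p of 0.203.

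With oxPAPC Cybb was at 7.29, 7.00 and 6.91, just under the medium arrays (-0.44 ± 0.14, adjusted p = 0.0395). That small fall was not called without oxPAPC replicate 12 (0.123) or 13 (0.0851) or medium replicate 9 (0.119) or 10 (0.107), nor after median centring (0.158) or cyclic loess (0.157). With oxLDL it was at 7.34, 7.51 and 7.47, among the medium values (-0.07 ± 0.14; 95% interval -0.37 to 0.23). Between stimuli, Cybb was higher with LPS than with oxLDL by 0.91 ± 0.14 (adjusted p = 0.00596) and than with oxPAPC by 1.28 ± 0.14 (adjusted p = 0.000419); with the spread of all 22 arrays these were at 0.217 and 0.0597. In ApoE -/- it was at 5.77, 5.49, 6.34 and 5.42, inside the wild-type range (0.03 ± 0.45; 95% interval -0.95 to 1.01).

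Macrophage markers were higher beside Cybb in medium and lower beside it with LPS. After incubation in medium 8 of 9 tested macrophage genes were called higher and 0 lower (median 1.33, all genes -0.13). Of all genes, 24.3% were called higher there. The mean of the list went from 4.51 to 5.11 in wild type to 5.89 to 6.07 in medium. Cd68, C1qa, Mrc1 and C1qb averaged 4.54, 4.44, 4.28 and 4.64 in wild type, near or under the 40th percentile. The sizes of their rises depend on background. A gene above that percentile on the 3 medium arrays alone was tested, so the filter itself favours rises among such genes. With LPS 4 of 11 macrophage genes were called lower and 0 higher (median -0.64), at a mean of 5.15 to 5.76. The 4 were C1qc, Tyrobp, Cd68 and C1qb. Of all 7550 genes tested, 429 were called lower with LPS. With oxPAPC 8 of 11 macrophage genes were called lower and 0 higher (median -0.80), at 5.32 to 5.36, where 12.9% of all genes were called lower. With oxLDL 1 of 11 was called lower, where 2.07% of all genes were. Itgam lay below the 40th percentile on all arrays of every group, Cd14 on all knockout, wild-type and oxPAPC arrays, Adgre1 on all knockout, wild-type and oxLDL arrays and C1qa on all oxPAPC arrays. C1qa and Mrc1 averaged 4.46 and 4.73 with oxPAPC. For the stimuli the filter favours falls among genes above that percentile on the medium arrays alone. The part of these cells in the values of Cybb after incubation, with LPS and with oxPAPC was not tested.

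Cyba, the p22phox subunit that both oxidases need, was dim everywhere. It was at 5.07, 4.97 and 5.43 in medium and at 4.27, 4.14 and 4.16 with oxPAPC, the 3 lowest values of the series. The difference was 1.96-fold (-0.97 ± 0.17, adjusted p = 0.00437), but the oxPAPC mean lay 0.43 below the 40th percentile of its arrays, where the size of a change depends on background. With LPS it was at 5.09, 5.07 and 4.55 and with oxLDL at 5.20, 4.99 and 5.18, both overlapping medium and not called. Cyba was higher than with oxPAPC by 0.72 ± 0.17 under LPS (adjusted p = 0.026) and by 0.93 ± 0.17 under oxLDL (adjusted p = 0.00741). The LPS difference was not called without LPS replicate 3 (0.0973) or 4 (0.11) or oxPAPC replicate 11 (0.0688) or 12 (0.0971). Fresh values were 4.93 to 5.31 in wild type and 5.03, 5.47, 4.84 and 5.36 in ApoE -/-, which overlapped.

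Sod2, the mitochondrial dismutase, gave the largest LPS change of the 7 genes among those called. It was at 8.09, 8.38 and 8.57 as the lowest, median and highest of fresh wild type, at 9.24, 9.39 and 9.08 in medium, and at 10.88, 10.68 and 9.97 with LPS. The 3 ranges did not overlap, although LPS replicate 10 lay well under the other LPS arrays. Medium was 1.83-fold over wild type (0.88 ± 0.13, adjusted p = 0.000166) and LPS 2.42-fold over medium (1.27 ± 0.22, adjusted p = 0.00739). Both calls held with any 1 array of the groups compared left out. The other 2 Sod2 probe sets gave 1.45 and 1.46 for LPS (adjusted p = 0.00688 and 0.00409) and 0.90 and 0.68 for medium.

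Neither oxidized lipid moved Sod2 past the test. It was at 9.41, 9.19 and 9.16 with oxLDL and at 9.02, 9.25 and 9.47 with oxPAPC, both spread over the medium values (0.02 ± 0.22 and 0.01 ± 0.22; 95% intervals -0.46 to 0.49 and -0.46 to 0.49). LPS was higher than oxLDL by 1.26 ± 0.22 (adjusted p = 0.00978) and than oxPAPC by 1.26 ± 0.22 (adjusted p = 0.00524). In ApoE -/- Sod2 was at 8.25, 8.48, 8.16 and 8.24, among the wild-type values (-0.08 ± 0.11; 95% interval -0.32 to 0.16).

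Sod1, the cytosolic dismutase, varied least. Its levels ran from 10.52 to 11.31 over all 22 arrays. With LPS they were 10.93, 10.75 and 10.52, all below the medium values of 11.17, 10.996 and 11.05, but the difference was not called (-0.34 ± 0.14, adjusted p = 0.129). With oxLDL they were 10.94, 10.93 and 10.92, also below medium (-0.14 ± 0.14, adjusted p = 0.577), and with oxPAPC 10.85, 10.97 and 11.11. In ApoE -/- they were 10.92, 10.96, 10.92 and 10.96, below the 6 wild-type arrays at 11.02 to 11.31 without overlap (-0.18 ± 0.09, adjusted p = 0.312).

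Sod3, the extracellular dismutase that binds to the vessel wall matrix, fell after incubation. It was at 9.83, 9.996 and 10.18 as the lowest, median and highest of wild type and at 8.74, 8.60 and 9.31 in medium, without overlap. The fall was 2.15-fold (-1.10 ± 0.16, adjusted p = 0.000162), and its dimmer probe set, which lay near the 40th percentile, fell by less (-0.40, adjusted p = 0.0367). None of the stimuli changed it past the test: it was at 9.16, 9.09 and 9.26 with LPS (0.29 ± 0.23), at 8.56, 9.13 and 8.48 with oxLDL (-0.16 ± 0.23) and at 9.62, 9.34 and 9.004 with oxPAPC (0.44 ± 0.23, adjusted p = 0.183). The ApoE -/- values were 10.02, 9.77, 9.59 and 10.03, overlapping wild type (-0.13 ± 0.12). Between medium and wild type, 6 of 8 smooth muscle and 4 of 6 fibroblast markers were called lower, with 0 and 2 higher. Of all genes, 34.4% were called lower and 24.3% higher there. The medians of these markers were -0.96 and -1.05, and their part in the Sod3 and Cat values was not tested.

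Cat, the peroxisomal catalase, had the largest fall after incubation and responded to the oxidized lipids in opposite directions on its brighter probe set. On that probe set it was at 8.78, 9.05 and 9.21 as the lowest, median and highest of wild type and at 7.37, 7.51 and 7.68 in medium. No array overlapped, and medium was 2.86-fold lower (-1.52 ± 0.13, adjusted p = 4.23e-06). With oxPAPC it was at 8.73, 8.83 and 8.23, above all medium arrays, 2.11-fold over medium (1.08 ± 0.24, adjusted p = 0.0109). With oxLDL it was at 6.76, 5.94 and 6.31, below all medium arrays, 2.27-fold under medium (-1.18 ± 0.24, adjusted p = 0.0235). With LPS it was at 7.20, 6.84 and 7.52, overlapping medium (-0.33 ± 0.24, adjusted p = 0.393).

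The dimmer Cat probe set gave the same calls for medium and oxPAPC and different ones for LPS and oxLDL. In medium it was at 6.19, 5.86 and 6.26, against 7.71 to 7.99 in wild type (-1.75, adjusted p = 1.4e-06), and with oxPAPC at 7.18, 7.36 and 7.30 (1.18, adjusted p = 0.00164). With oxLDL it was at 6.28, 6.45 and 5.94, among the medium values (0.12, adjusted p = 0.71). With LPS it was at 5.03, 5.23 and 4.83, below all of them and 0.21 to 0.59 above the 40th percentile (-1.07 ± 0.17, adjusted p = 0.00526). So the fall with oxLDL was called on the brighter probe set and not on the dimmer one, and the fall with LPS on the dimmer one and not on the brighter one, where the value was also below 0. The oxLDL call on the brighter set was also lost without oxLDL replicate 15 (0.0919) or 16 (0.0657) and without medium replicate 9 (0.0727), 10 (0.0634) or 11 (0.068), and with the mean of both probe sets (-0.53, adjusted p = 0.072). That mean was called lower with LPS (-0.70, adjusted p = 0.0163), which made 3 of the 7 genes called there, beside 603 of 7174 genes.

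That disagreement was tested directly, as the difference between the brighter and the dimmer probe set, for every gene with more than 1, on the same arrays and with limma, an analysis chosen after seeing the data. For Cat the difference changed by -1.30 ± 0.31 with oxLDL against medium (adjusted p = 0.0323), where 7.02% of 2651 genes were called. Between LPS and oxLDL it changed by 2.04 ± 0.31 (adjusted p = 0.00571; 9.62% of genes called). With LPS against medium (0.74 ± 0.31, adjusted p = 0.153; 10.1% called) and with oxPAPC (-0.10 ± 0.31, adjusted p = 0.871; 10.6% called) it was not called, nor after incubation (0.23 ± 0.14, adjusted p = 0.357). For Sod3 the difference changed after incubation (-0.70 ± 0.19, adjusted p = 0.0471), where 7.68% of 2669 genes were called. The dimmer Sod3 set averaged 0.16 above the 40th percentile in wild type and 0.17 below it in medium, so that its fall is bounded by background and the size of this difference cannot be read.

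**Figure D2:**
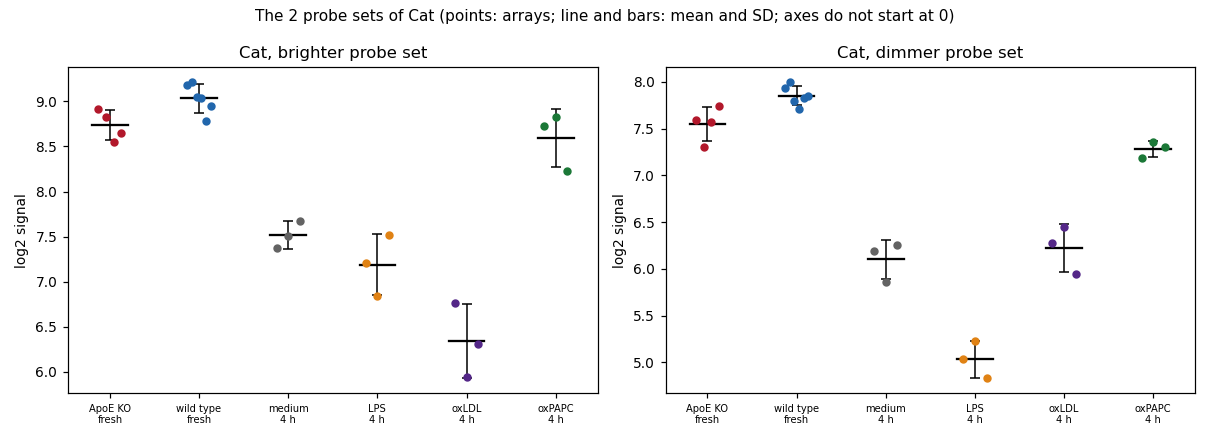
Log2 signal (vertical axes, not starting at 0) of the 2 Cat probe sets in the 6 groups; points are arrays and lines with bars are means and SD. Both panels drop from wild type to medium and stand high with oxPAPC, while the lowest group is oxLDL on the brighter probe set (5.94 to 6.76) and LPS on the dimmer one (4.83 to 5.23).

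Between stimuli, Cat on its brighter probe set was 4.79-fold lower with oxLDL than with oxPAPC (-2.26 ± 0.24, adjusted p = 0.000647), and the dimmer set gave -1.06 (adjusted p = 0.00404). It was lower with LPS than with oxPAPC by -1.41 ± 0.24 on the log2 scale (adjusted p = 0.0048), and the dimmer set gave -2.25 (adjusted p = 3.17e-05). LPS against oxLDL was not called on the brighter set (0.85 ± 0.24, adjusted p = 0.0636) and was called in the opposite direction on the dimmer one (-1.19 ± 0.17, adjusted p = 0.00463). In fresh intima Cat was at 8.92, 8.82, 8.55 and 8.65 in ApoE -/-, overlapping the wild-type range and not called (-0.30 ± 0.11, adjusted p = 0.207), and the dimmer set was at 7.31 to 7.74. Its unadjusted p of 0.0222 was the only one under 0.05 among the 7 genes in that comparison, where 1328 of 7264 genes reached that level.

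**Figure D3:**
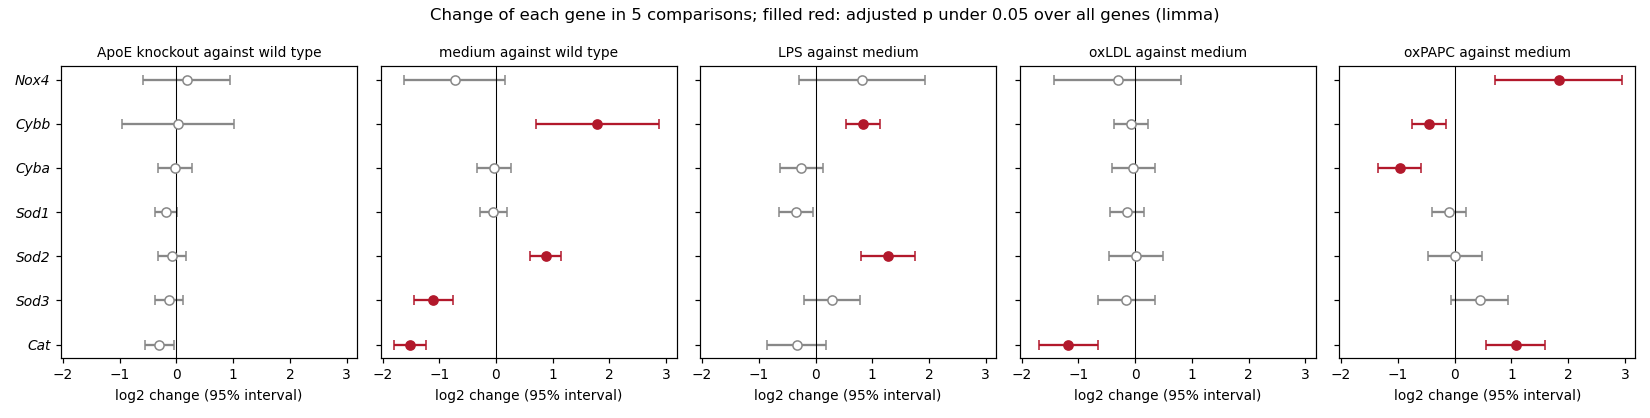
Log2 change with its 95% interval (horizontal axes) of the 7 genes in the 5 main comparisons; filled points were called at an adjusted p under 0.05. In the knockout comparison the intervals hold 0 for all genes but Cat (-0.55 to -0.05, not called) and are widest for Cybb (-0.95 to 1.01) and Nox4. On its brighter probe set, shown here, Cat lies on opposite sides of 0 with oxLDL (-1.18) and oxPAPC (1.08). Its dimmer set, not shown here, changed by 0.12 with oxLDL and was not called.

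Across the 6 groups most neighbours overlapped. In the order of mean levels from high to low, Cybb ran LPS, medium, oxLDL, oxPAPC, ApoE -/- and wild type, with gaps after LPS, after oxLDL and after oxPAPC. Sod2 ran LPS, oxLDL, oxPAPC, medium, wild type and ApoE -/-, with gaps after LPS and after medium. Cat ran wild type, ApoE -/-, oxPAPC, medium, LPS and oxLDL on its brighter probe set, with gaps after oxPAPC and after LPS. Sod3 ran wild type, ApoE -/-, oxPAPC, LPS, medium and oxLDL, and Nox4 ran oxPAPC, ApoE -/-, LPS, wild type, medium and oxLDL, with no gap between neighbours in either. Cyba had 1 gap, between LPS and oxPAPC at the low end, and Sod1 had none.

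Sod2 was also set against Cat and against the other dismutases, as the difference between 2 genes on the same array. A change of an array's scale cancels in such a difference. Sod2 acts in mitochondria and catalase in peroxisomes, so their difference does not measure supply against removal of peroxide. Sod2 minus Cat was at -1.12 to -0.21 in wild type, at 1.87, 1.88 and 1.40 in medium, at 3.67, 3.84 and 2.45 with LPS, at 2.65, 3.25 and 2.85 with oxLDL and at 0.30, 0.42 and 1.24 with oxPAPC. It thus changed by 2.39 from wild type to medium, with the smallest p that an exact permutation test of 3 against 6 arrays can give (two-sided p = 0.0238; 0.119 adjusted over 15 such tests). Against medium it changed by 1.60 with LPS, 1.20 with oxLDL and -1.07 with oxPAPC, in each case without overlap, and each with an exact permutation p of 0.1, the smallest for 3 against 3 arrays (0.214 adjusted). Sod2 minus Sod1 changed by 0.92 from wild type to medium (exact permutation p = 0.0238, 0.119 adjusted) and by 1.62 with LPS (exact permutation p = 0.1). Sod2 minus Sod3 changed by 1.98 from wild type to medium (exact permutation p = 0.0238, 0.119 adjusted) and by 0.98 with LPS, where arrays overlapped (exact permutation p = 0.2). In ApoE -/- these 3 differences changed by 0.22, 0.10 and 0.05, with exact permutation p-values of 0.2, 0.486 and 0.743. None of the 15 tests was under 0.05 after adjustment, and the LPS and oxLDL values of Sod2 minus Cat depend on the probe set of Cat.

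**Figure D4:**
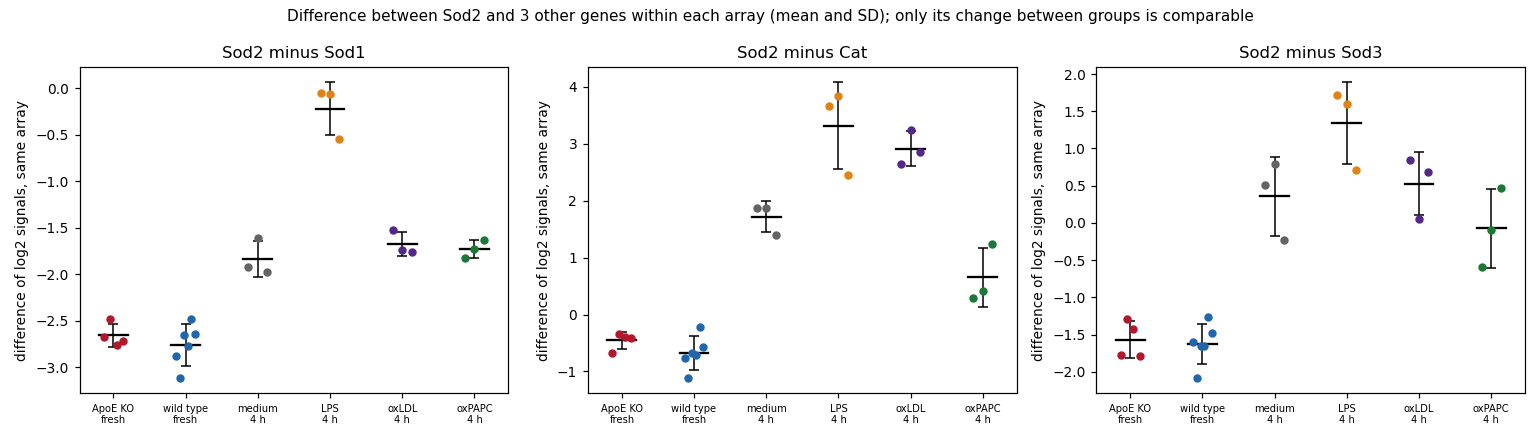
Difference of log2 signals on the same array (vertical axes) between Sod2 and each of Sod1, Cat and Sod3 in the 6 groups; points are arrays and lines with bars are means and SD, and the zero of each axis has no meaning. Sod2 minus Cat is highest with LPS (2.45 to 3.84) and oxLDL, and lies at 0.30 to 1.24 with oxPAPC, under the medium arrays.

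The rest of the pathway was read from 6 further lists. Their counts are read beside the shares of all genes called: 58.7% after incubation, 9.05% with LPS, 2.81% with oxLDL and 21.3% with oxPAPC. Of 16 other NADPH oxidase genes, which include Rac1 and Rac2, GTPases of the active phagocyte oxidase, 9 were on the array and 4 to 6 were tested per comparison. None was called in any of the 5 comparisons. Of 14 peroxidase and peroxiredoxin genes, which reduce peroxides with glutathione or thioredoxin, 12 were on the array. Incubation called 5 of 9 lower and 0 higher (median -0.39, all genes -0.13). The largest changes were those of Gpx7 (-2.36 ± 0.16), Gpx8 (-1.98 ± 0.33) and Prdx2 (-1.06 ± 0.14). The medium mean of Gpx7, 3.76, lay under the rough floor of detection, so the size of its fall depends on background. A gene above that floor on wild-type arrays alone was tested, so the filter itself favours falls among such genes. Gpx7 is 1 of the 5 called lower. With oxPAPC 2 of 8 were called higher, Gpx8 (1.58 ± 0.39, adjusted p = 0.0172) and Prdx1 (0.46 ± 0.14), and 1 lower, Gpx4 (-0.68 ± 0.15). With LPS and oxLDL 0 of 8 were called.

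The list on copper and manganese handling, which also holds exporters and mitochondrial carriers, had 12 genes, with 10 on the array. Slc31a1, the copper importer of the cell surface, fell with LPS (-1.06 ± 0.19, adjusted p = 0.00869) as the 1 call among 10 tested, while 0 of 10 were called with oxLDL. With oxPAPC 1 of 10 was called higher (Slc39a14, 0.46 ± 0.15) and 2 lower, Atox1, a copper chaperone (-0.75 ± 0.24), and Slc31a1 (-0.63 ± 0.19). The LPS and oxPAPC counts lay near the shares of all genes called, 9.05% and 21.3%. Incubation called 3 of 9 higher and 5 lower, where 58.7% of all genes were called. The metal transporters Slc39a8 (1.78 ± 0.65) and Slc39a14 (1.24 ± 0.30) rose, and Ccs, the chaperone that loads Sod1 with copper, fell (-1.22 ± 0.14, adjusted p = 3.6e-05) while Sod1 itself was not called.

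Of 13 other enzymes that form superoxide or peroxide 9 were on the array. Nos3, endothelial nitric oxide synthase, fell with oxPAPC as the 1 call of 5 tested (-1.44 ± 0.42, adjusted p = 0.033) and rose after incubation (0.97 ± 0.24), where Ero1a, an oxidase of protein folding, rose by more (2.05 ± 0.21) and Acox3, a peroxisomal oxidase, fell (-1.12 ± 0.38); in all 2 of 6 were called higher and 3 lower there. With oxPAPC 4 of 9 endothelial markers were called lower and 0 higher (median -0.72), where 12.9% of all genes were called lower. The part of endothelial RNA in the Nos3 value was not tested. With LPS and oxLDL 0 of 5 of these enzymes were called. The medium mean of Acox3, 4.57, lay just under the rough floor of detection, so the size of its fall after incubation depends on background. The filter favours such a fall too, since a gene above the floor on wild-type arrays alone was tested.

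Of 23 peroxisome genes, which build and fill the organelle that holds catalase, 17 were on the array. Incubation called 8 of 14 lower and 2 higher (median -0.60, all genes -0.13), among them Pex26 (-1.40 ± 0.21) and Abcd3 (-1.09 ± 0.14), which fell, and Pex5, the import receptor (1.20 ± 0.20), which rose. None of 15 was called with LPS, 1 with oxLDL, Acaa1a, a thiolase (1.00 ± 0.21, adjusted p = 0.0258), and 1 with oxPAPC, Pex3 (-0.78 ± 0.21, adjusted p = 0.0245). The list medians were 0.03 with oxLDL and -0.06 with oxPAPC, near those of all genes (0.01 and -0.05), and 2.81% and 21.3% of all genes were called in these comparisons.

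Of 15 transcription factor genes and their partners known to act on these promoters 12 were on the array. Incubation called 5 of 9 higher, led by Cebpb (1.80 ± 0.17), Nfe2l2, the factor of the antioxidant response (1.59 ± 0.11), and Sirt1 (1.47 ± 0.19), and 2 lower. LPS called 1 of 9, Foxo3, which fell (-0.80 ± 0.21, adjusted p = 0.0382), oxLDL 0 of 9, and oxPAPC 2 of 9, Irf8 (-0.65 ± 0.19) and Rela (-0.57 ± 0.18), which both fell. The wild-type mean of Cebpb, 4.53, and the oxPAPC mean of Irf8, 4.195, lay under the rough floor of detection. The sizes of the Cebpb rise and the Irf8 fall therefore depend on background. A gene could pass the filter through the medium arrays alone, which favours rises after incubation and falls with a stimulus among such genes. None of the genes of these 6 lists was called between ApoE -/- and wild type.

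**Figure D5:**
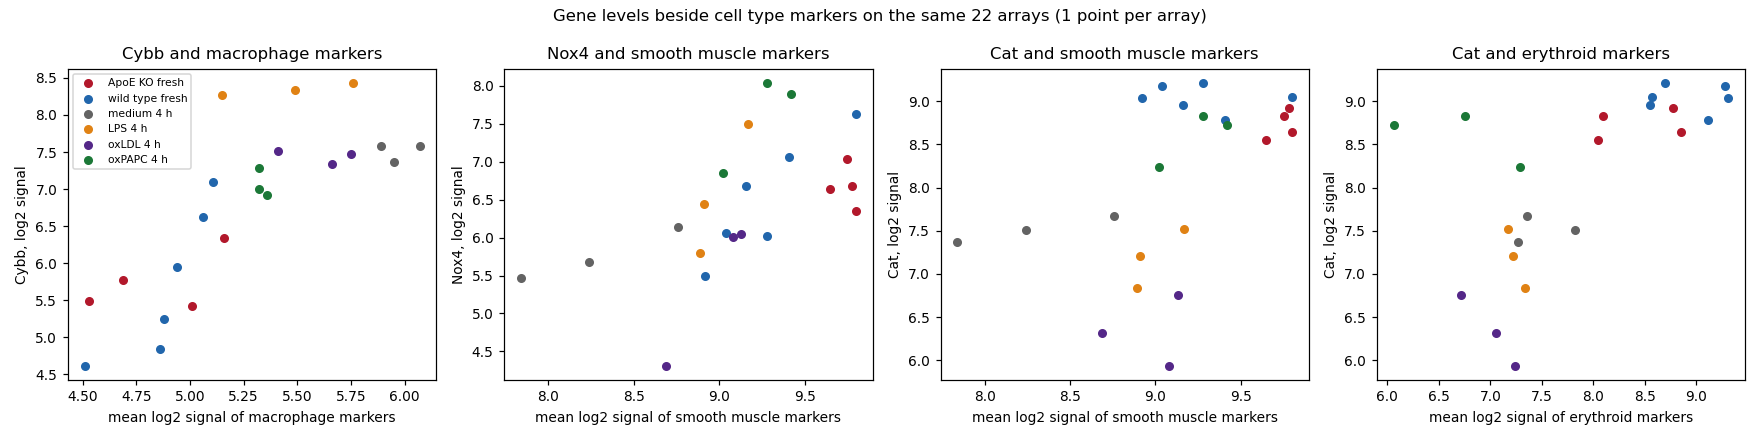
Log2 signal of Cybb, Nox4 and Cat (vertical axes) against the mean log2 level of marker genes on the same array (horizontal axes). Points are arrays, coloured by the 6 groups, and the axes do not start at 0. The panels set Cybb against macrophage markers, Nox4 against smooth muscle markers, and Cat against smooth muscle and erythroid markers. Smooth muscle markers are lowest in medium (7.84 to 8.76) and macrophage markers highest there (5.89 to 6.07).

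Other markers moved as well in the comparisons of the 7 genes. Of all genes, 34.4% were called lower after incubation, 2.07% with oxLDL and 12.9% with oxPAPC, and 429 of 7550 with LPS. Endothelial markers were called lower in 3 of 9 with LPS and 1 of 9 with oxLDL, with 0 higher in both. Their array mean was 7.99 to 8.30 with oxPAPC. Fibroblast markers were called lower in 2 of 6 with each of the 3 stimuli, Lum and Dcn each time, and higher in 1 with oxPAPC. The means of Lum with oxLDL (4.56) and oxPAPC (4.25) lay under the rough floor of detection, so the sizes of those falls depend on background. Erythroid genes fell after incubation (4 of 4 tested, median -1.62) and were called lower in 2 of 3 with oxPAPC (median -1.44), 1 of 3 with oxLDL (Hba-a2, -0.84 ± 0.15; list median -0.72) and 0 of 3 with LPS (median -0.58). Their array mean went from 8.55 to 9.31 in wild type to 7.27 to 7.82 in medium. Slc4a1, among the 4 after incubation, lay below the 40th percentile on all medium arrays (mean 3.71, against 5.77 in wild type). It therefore passed the filter through the wild-type arrays alone, and the size of its fall depends on background. None of the tested markers of any of the 7 lists was called between ApoE -/- and wild type, although the median change of the smooth muscle markers was 0.45. Incubation and any difference in handling between fresh and incubated aortas cannot be told apart.

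The genes with the most similar patterns were named for each of the 7 by Pearson correlation over the 22 arrays, as a description among 7941 genes; the arrays share the large step from fresh to incubated. Nox4 went most closely with Itga8 (r = 0.846), Prkg1 (0.836) and Sh3bgrl (0.831). Cybb went with Bcl2l11 (0.92), Tgs1 (0.911) and Cd86 (0.905), and Sod2 with Nfkbia (0.935), Il1rn (0.925) and Tifa (0.923). Sod3 went with Nfix (0.926), Zbtb20 (0.925) and Sfrp2 (0.923), and Cat with Ost4 (0.932), Ywhaq (0.925) and Stag2 (0.925). Cyba went with Slc44a2 (0.899), Cyp1b1 (0.897) and Psmd13 (0.862), and Sod1 with Rsbn1l (0.831), Abhd4 (0.792) and Fam117a (0.782).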

How the data were processed

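The authors deposited log2 signals for 22 arrays. The submitters' processing notes name RMA and the affy package without versions. RMA corrects background, makes the arrays' distributions equal and combines the probes of a set, which hides a change shared by most transcripts. The RNA was amplified and biotin labelled, per the labels' protocols, and had an integrity number of at least 7. The genome build and whether all arrays were normalized together are not given in the sources used here.

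Of 22626 probe sets, 18003 carried 1 gene symbol in the platform's annotation, 287 several and 4336 none; 17977 were matched to RefSeq names by gene identifier. A gene was tested if it exceeded its array's 40th percentile on a number of arrays no smaller than the smallest group. Tests were two-sided and used lmFit and eBayes of limma 3.58.1 in R 4.3.3; p-values were adjusted by Benjamini-Hochberg across every gene of a fit. The 10 fresh arrays, the 12 incubated arrays, and medium with wild type were fitted separately. All 7 genes passed that filter in every comparison. Exact permutation tests used scipy 1.17.1. Scan dates and other batches are not given in the sources used here.

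The genes described, the 6 pathway lists and the 7 marker lists (endothelial, smooth muscle, macrophage, neutrophil, fibroblast, lymphocyte, erythroid) were chosen with earlier results of these data known. Named genes were the 8 members, up to 3 called genes per pathway list and comparison with the largest change, and the 3 genes most alike to each member. Alternatives were the scaling (median centring, cyclic loess), no filter, the mean of a gene's probe sets and 1 fit of all arrays. Each array of the 2 groups compared was also left out in turn. The other incubated arrays, which share the estimate of the spread, were not left out. The other probe sets of each gene, and a limma test of the difference between 2 probe sets, were added after seeing the data. On simulated data with 7550 genes in the design of LPS against medium, changes of 1 and 2 on the log2 scale were recovered in 73.1% and 95.5% of genes, and changes of 0.5 in 7.46%.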

Additional observations from a re-analysis of the deposited data

How the results depend on the processing

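Of 20 calls on the 7 genes, 15 held with each array of the 2 groups compared left out in turn. The 5 that did not (Cat with oxLDL, Nox4 and Cybb with oxPAPC, Cyba for LPS against oxPAPC, Nox4 for oxLDL against oxPAPC) are given with the calls, and the causes of the changes below were not tested. With 1 array left out, the called members numbered 0 to 1 with oxLDL and 2 to 4 with oxPAPC. Over all genes the calls numbered 1 to 68 for ApoE knockout against wild type (31 with all arrays), 236 to 374 with LPS (683), 23 to 269 with oxLDL (212), 735 to 1999 with oxPAPC (1606), 133 to 266 for LPS against oxLDL (383), 244 to 1206 for LPS against oxPAPC (653) and 348 to 1370 for oxLDL against oxPAPC (934). With all 22 arrays in 1 fit they numbered 94 in the knockout, 1098 with LPS, 662 for LPS against oxLDL and 554 with oxLDL, and 1 member was called with LPS in place of 2. Median centring left 15 calls in the knockout and no filter 6. The mean of a gene's probe sets left 0 members called with oxLDL, where 156 of 7174 genes were called.

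Directions turned in several settings, all of them for uncalled members except Cat with oxLDL on its second probe set. Median centring gave Cyba 0.0122 in the knockout, 0.011 in medium and 0.0488 with oxLDL, Cybb 0.0143 with oxLDL, and Sod1 0.0011 in medium and 0.038 with oxPAPC. Cyclic loess gave Cyba 0.12 and Sod1 0.0588 in medium. The mean of probe sets gave, in the knockout, Nox4 -0.0347, Sod2 0.0716 and Sod3 0.0759; with oxLDL, Nox4 0.21 and Sod2 -0.0499; and Cat -0.17 for LPS against oxLDL. The second probe set gave, in the knockout, Nox4 -0.25, Sod2 0.28 and Sod3 0.28; with oxLDL, Nox4 0.72, Sod2 -0.21, Sod3 0.0507 and Cat 0.12; Sod3 -0.0893 with LPS; and Cat -1.19 for LPS against oxLDL. The third Sod2 probe set gave 0.0098 in the knockout. LPS against oxLDL was called for Cat without oxLDL replicate 14 (adjusted p = 0.04), with cyclic loess (0.93, adjusted p = 0.0419) and with all arrays in 1 fit (adjusted p = 0.0113).

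With 1 array left out the ranges that crossed 0 were, in the knockout, Cyba -0.12 to 0.0899, Cybb -0.20 to 0.30, Nox4 -0.0171 to 0.41 and Sod2 minus Sod3 -0.0387 to 0.13; in medium, Cyba -0.18 to 0.0554; with oxLDL, Cyba -0.13 to 0.10, Nox4 -0.60 to 0.27, Sod2 -0.0616 to 0.0939, Sod3 -0.36 to 0.0579 and Sod2 minus Sod3 -0.12 to 0.41; and with oxPAPC, Sod2 -0.10 to 0.13. In medium against wild type, where the median change of all genes was -0.13, Cybb, Sod2, Sod3 and Cat were called after median centring at 1.83, 0.92, -1.05 and -1.47, in place of 1.78, 0.88, -1.10 and -1.52. No paired analysis was possible because the groups compared share at most 1 replicate number. The small number of arrays limits the precision of every value.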

Other observations

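Among the 7 genes, the closest pairs over the 22 arrays were Cybb with Sod2 and Sod3 with Cat, both at r = 0.841, and the most opposed were Cybb with Sod3 (-0.762) and Cybb with Cat (-0.74). The arrays share the step from fresh to incubated tissue, and these values are descriptions.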
